A study of Mus musculus with 18 samples.

Results

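The genes described here are 33 genes of the endoplasmic reticulum (ER) chaperone system and the unfolded protein response, out of 49315 genes counted in the left ventricle of muscle LIM protein (MLP) knockout and wild-type mice. They were taken as a fixed list of symbols, matched to the Ensembl identifiers of the count tables through GENCODE M21, and kept where at least 10 counts were present in 3 or more libraries. All 33 met that rule, as did 15914 genes in all, and 32 of the 33 also passed the filter used before testing. MLP is a LIM domain protein of the cardiomyocyte Z-disc encoded by Csrp3, and its loss in mice leads to dilated cardiomyopathy. The 18 libraries came from the mid wall of the left ventricle of male mice on the 129SVE background, with 3 MLP KO and 3 WT libraries at each of 3, 6 and 10 weeks of age, so that expression could be followed as the disease progressed. Sex, strain background and tissue were the same in all 6 groups, and no other allele or treatment is named. The labels give neither the design of the Csrp3 allele nor whether WT mice were littermates, and they do not say that the libraries of a group came from separate animals, so p-values measure the spread between these samples. KO and WT below stand for the libraries labelled so.

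Secreted and membrane proteins fold in the lumen of the ER with the help of the Hsp70 chaperone BiP (Hspa5), the Hsp90 chaperone Grp94 (Hsp90b1), lectin chaperones that bind glycoproteins, and disulfide isomerases. When unfolded proteins build up, the membrane sensors IRE1 (Ern1), PERK (Eif2ak3) and ATF6 start the unfolded protein response: IRE1 splices Xbp1 messenger RNA, ATF6 is cut to release a transcription factor, and PERK slows translation and raises ATF4. XBP1 and ATF6 bind the ER stress response element in the promoters of chaperone genes and raise their transcription. In cardiomyocytes the ER is continuous with the sarcoplasmic reticulum that stores calcium for contraction, and calreticulin and BiP also bind calcium. Counts per gene cannot separate spliced from unspliced Xbp1, nor cut from whole ATF6.

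Library totals ran from 15873296 to 21397675 counts in KO and from 14980968 to 23001047 in WT. Levels are given as CPM, counts relative to library size after TMM scaling, with the 3 libraries of a group in the order of their replicate numbers. Mitochondrially encoded genes took 7.499% to 10.9% of counts in KO and 11% to 16.8% in WT. Csrp3 held 1134 to 2703 CPM in KO and 951 to 1111 CPM in WT at 3 weeks. At 6 weeks it held 1792 to 2483 CPM in KO and 1230 to 1486 CPM in WT. At 10 weeks it held 1501 to 3416 CPM in KO and 1001 to 1124 CPM in WT. Every KO library thus lay above every WT library of its age. The allele design is not given and the counts are per gene, so this checks nothing about the allele. The genotypes therefore rest on the labels. Cardiomyocyte markers were abundant in every library, with Myh6 at 29027 CPM or more. In KO at 3 weeks the libraries stood apart from each other for the genes described here: replicate 2 was the highest of the 3 for 27 of 32 and lay above all WT libraries for 25, whereas replicate 1 was the lowest for 21 and lay below all WT libraries for 11 and above them for 12. The median coefficient of variation over the 32 genes was 19.97% in that group and 5.28% to 9.84% in the other 5 groups. KO replicate 3 at 3 weeks, KO replicate 3 at 6 weeks and KO replicate 1 at 10 weeks held 118, 436 and 1145 CPM of the atrial light chain Myl4, against at most 23.2 CPM in the other 15 libraries.

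At 3 weeks the KO libraries were called higher for Xbp1, the cofactor gene Manf, the J-domain genes Dnajb9 and Dnajb11, calreticulin (Calr) and the disulfide isomerase genes Pdia6, P4hb and Txndc5. At 6 weeks BiP, Grp94, Calr, calnexin (Canx) and Pdia6 were lower in KO, and at 10 weeks BiP, Canx, Manf, Sdf2l1, Dnajc3, Pdia3 and Pdia4 were lower. P4hb and Txndc5 were higher in KO at all 3 ages, and Dnajc10 at 6 and 10 weeks. A gene was called where the adjusted p of edgeR's quasi-likelihood test, corrected over all 15778 genes tested, was under 0.05. Of the genes called at 3 weeks, only Xbp1 kept its call without KO replicate 2. The calls of Grp94 and Pdia6 at 6 weeks were lost with each library left out in turn. Fold changes are log2 of KO over WT. Each SE is the size of the fold change over the square root of the F statistic.

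In counts, 8 of the 32 genes were higher and 0 lower in KO at 3 weeks, where 8.65% and 6.68% of all genes tested were called higher and lower. Their median log2 fold change was 0.27, and that of all genes was 0.0015. At 6 weeks 3 were higher and 5 lower (all genes 11% and 12.8%), with a median of -0.03 against 0.0042 over all genes. At 10 weeks 5 were higher and 7 lower (all genes 14.6% and 14.7%), with a median of -0.15 against -0.03 over all genes. Taken over both directions, 8 and 12 of 32 at 6 and 10 weeks stood beside 23.8% and 29.3% of all genes, and at 3 weeks 0 were lower by DESeq2 and limma voom too, with 0 at an unadjusted p under 0.05. Of the 32 genes, 18 were called at 1 age or more and 14 at none. Over the 3 ages, 8 were called only higher, 7 only lower, and Manf, Calr and Pdia6 higher at 3 weeks and lower later. The share of all genes called at 1 age or more was not computed. These pooled counts therefore describe the list alone and cannot be set against all genes. Values did not overlap between KO and WT for 9 genes, all higher in KO, at 3 weeks (all genes 30.5%), for 17 at 6 weeks, 8 higher and 9 lower (all genes 44.2%) and for 17 at 10 weeks, 5 higher and 12 lower (all genes 40.5%). The count at 3 weeks was 1, Xbp1, without KO replicate 2, stood at 13 without KO replicate 1, and was 1 when the fit held the 3-week groups alone. At 6 weeks the count of higher genes was 1 without KO replicate 1, and that of lower genes 2 without KO replicate 1, KO replicate 2 or WT replicate 3. At 10 weeks the count of lower genes was 2 without KO replicate 3, and that of higher genes 3 without KO replicate 1 or WT replicate 3. These are whole-tissue libraries, so fewer cells of a type and less RNA per cell cannot be told apart.

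**Figure D1:**
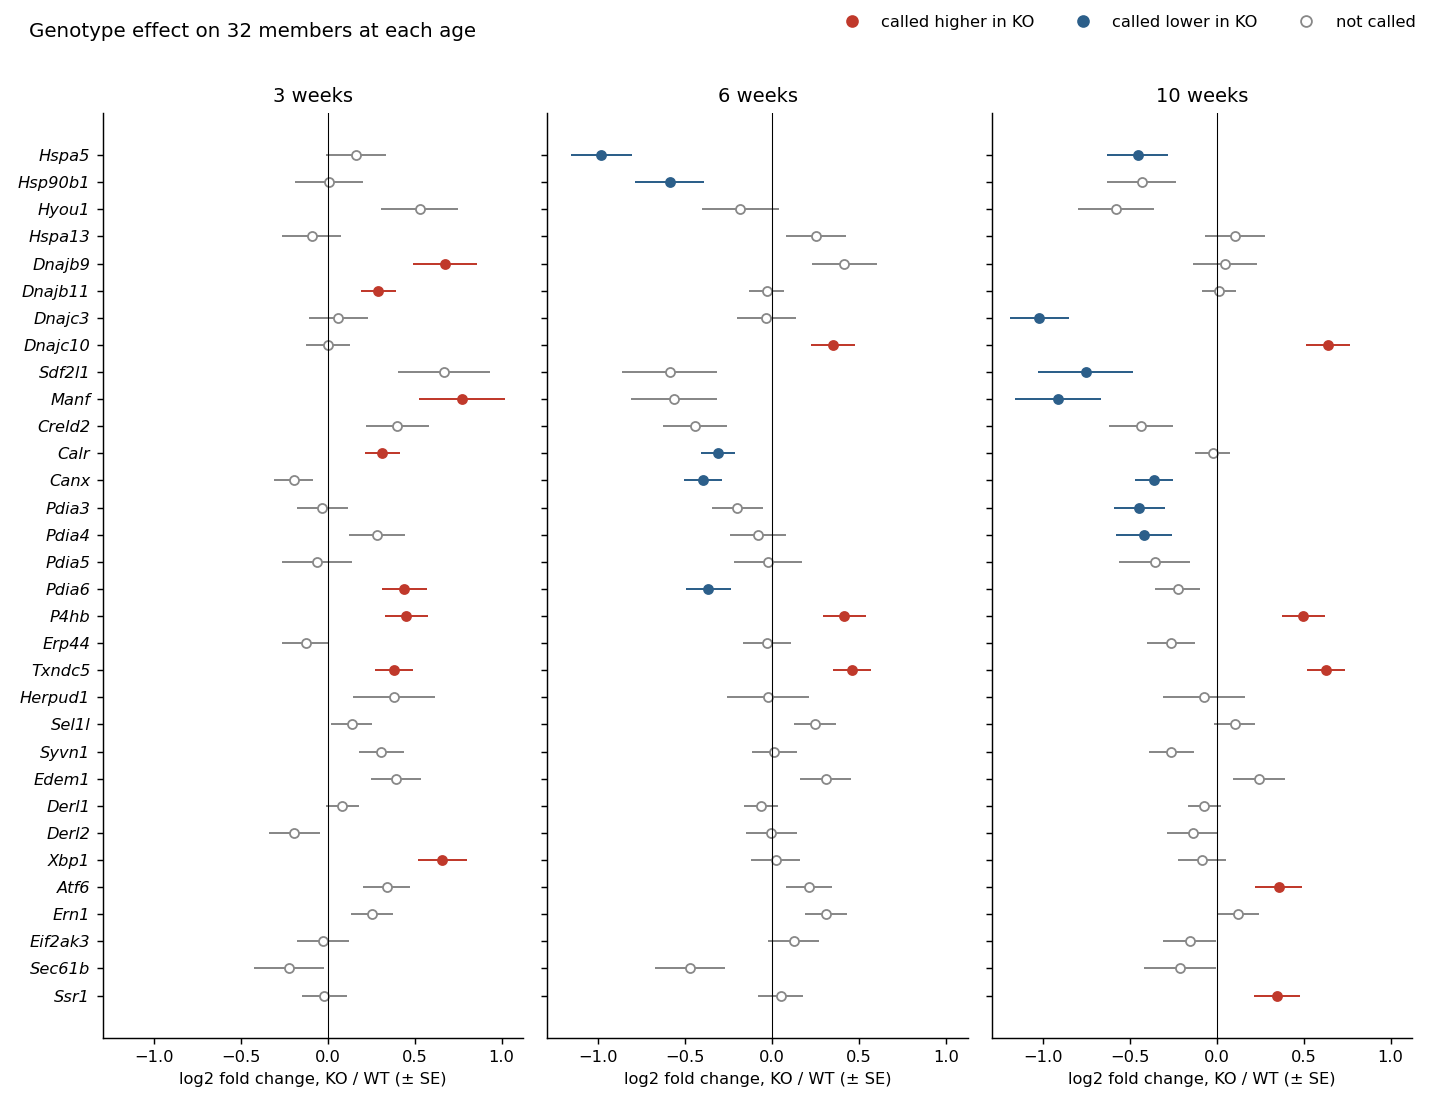
Log2 fold change of KO over WT with its SE for the 32 tested genes at 3, 6 and 10 weeks (filled, adjusted p under 0.05; open, not called; 3 libraries a group). The 8 called genes at 3 weeks lie right of 0, and at 6 and 10 weeks 5 and 7 called genes lie left of 0 while P4hb, Txndc5 and Dnajc10 stay right of it.

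Promoter sequence is shown because every gene called lower at 6 weeks carries the same letters upstream of its start. RefSeq windows of GRCm38.p6, from 250 bases before to 50 bases after the annotated start, were at hand for 28 of the 33 genes, and Hyou1, Hspa13, Manf, Derl1 and Atf6 had none. The ER stress response element (ERSE) was searched on both strands as CCAAT, 9 unspecified bases and CCACG, ERSE-II as ATTGG, 1 unspecified base and CCACG, and the XBP1-type element (UPRE) as TGACGTGG. None of these patterns contains another, and all 3 hold CCACG on either strand. ERSE was present in 9 of the 28 genes (32.1%), and in 0.137% of the 27025 genes with a window. The element is known from promoters of chaperone genes, and the list was chosen to hold such genes. Its higher share here is thus not a result of these data. ERSE-II was present in 2 (7.14%, against 0.0444% of all genes) and UPRE in 1 (3.57%, against 0.714%). The stretch before the start of the BiP gene, the list's gene with the highest mean CPM in each of the 6 groups, and that of P4hb, which rose at all ages and had no match in its window, are given in transcript orientation, with matched letters in capitals.
Hspa5 (-150 to -1; chr2:34771940-34772089, plus strand): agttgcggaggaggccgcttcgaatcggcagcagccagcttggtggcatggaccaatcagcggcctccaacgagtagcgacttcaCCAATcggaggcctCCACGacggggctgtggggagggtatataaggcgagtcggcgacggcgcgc
P4hb (-150 to -1; chr11:120573254-120573403, minus strand): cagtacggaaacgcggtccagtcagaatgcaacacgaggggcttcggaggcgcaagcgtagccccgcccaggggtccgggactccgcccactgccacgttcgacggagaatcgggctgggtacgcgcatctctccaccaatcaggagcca

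The other matches are shown with 6 bases on each side, to let the spacing and the bases between the fixed letters be compared. Positions are those of the match relative to the RefSeq start, and coordinates are those of the printed stretch. Where the match lies on the other strand the capitals read as the reverse complement. The ERSE of Derl3 is not printed, since too few counts were present to test that gene. The last of these lines is the UPRE of Txndc5, and the pair before it are ERSE-II.
Hsp90b1 (-212 to -194; chr10:86705632-86705662, minus strand): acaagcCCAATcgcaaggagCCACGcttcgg
Hsp90b1 (-107 to -89; chr10:86705527-86705557, minus strand): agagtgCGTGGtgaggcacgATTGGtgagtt
Calr (-162 to -144; chr8:84847069-84847099, minus strand): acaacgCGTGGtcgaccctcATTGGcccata
Canx (-145 to -127; chr11:50325794-50325824, minus strand): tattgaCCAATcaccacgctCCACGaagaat
Pdia6 (-98 to -80; chr12:17266485-17266515, plus strand): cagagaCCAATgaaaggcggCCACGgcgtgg
Dnajc3 (-105 to -87; chr14:118937821-118937851, plus strand): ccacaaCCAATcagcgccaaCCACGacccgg
Creld2 (-126 to -108; chr15:88819514-88819544, plus strand): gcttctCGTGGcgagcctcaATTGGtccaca
Syvn1 (-44 to -26; chr19:6046526-6046556, plus strand): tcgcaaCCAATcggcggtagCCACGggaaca
Herpud1 (-52 to -42; chr8:94386371-94386393, plus strand): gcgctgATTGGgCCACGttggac
Dnajb11 (8 to 18; chr16:22857846-22857868, plus strand): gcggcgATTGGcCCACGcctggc
Txndc5 (-138 to -131; chr13:38528039-38528058, minus strand): cgccgcTGACGTGGcgctag

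Of the 11 genes with ERSE or ERSE-II, 10 were tested, beside 17 tested genes whose window held neither. At 3 weeks 3 of the 10 and 4 of the 17 were higher in KO (medians 0.30 and 0.14), and 0 of either were lower. At 6 weeks 0 of the 10 were called higher and 5 lower, namely Hspa5, Hsp90b1, Calr, Canx and Pdia6. Of the 17, 3 were called higher and 0 lower, and the medians were -0.34 and 0.05. Fold changes at 6 weeks ran from -0.98 to 0.01 with a match and from -0.59 to 0.46 without. The lowest without a match was that of Sdf2l1, not called though its KO values all lay below WT. Hsp90b1 and Pdia6 lost their calls at 6 weeks with each library left out in turn. At 10 weeks 0 of the 10 rose and 3 fell, whereas 4 of the 17 rose and 3 fell (medians -0.31 and -0.08). This division was made after the fold changes were known and was not tested. A match is a run of letters, not a shown binding site, and a window without one says only that these letters are not in it.

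Among the Hsp70 and Hsp90 family chaperones, BiP and Grp94 were lower in KO at 6 weeks and neither was called at 3 weeks. Hspa5 had 451, 886 and 734 CPM in KO at 3 weeks, against 618, 610.0 and 623 CPM in WT. Hspa5 was at 374, 341 and 323 CPM in KO at 6 weeks, against 655, 704 and 693 CPM in WT. Hspa5 stood at 652, 546 and 449.8 CPM in KO at 10 weeks, against 788, 781 and 689 CPM in WT. The KO values straddled the tight WT values at 3 weeks, with replicate 1 below and replicates 2 and 3 above them, and lay wholly below WT at 6 and 10 weeks. The fold change of Hspa5 was 0.16 (adjusted p = 0.572, SE 0.17) at 3 weeks, -0.98 (adjusted p = 0.000241, SE 0.17) at 6 weeks and -0.45 (adjusted p = 0.0487, SE 0.17) at 10 weeks. At 6 weeks Hspa5 kept its call with each of the 6 libraries left out in turn (adjusted p at most 0.00225). At 10 weeks it kept its call in 1 of 6 fits with 1 library left out, and lost it without WT replicate 1, WT replicate 2, WT replicate 3, KO replicate 2 and KO replicate 3 (adjusted p up to 0.204). The genotype effect itself was lower at 6 than at 3 weeks, with a log2 change of -1.15 (adjusted p = 0.0186, SE 0.24). Hsp90b1 had 237, 418 and 394 CPM in KO at 3 weeks, against 361, 349 and 335 CPM in WT. Hsp90b1 was at 234, 225 and 199.7 CPM in KO at 6 weeks, against 337, 335 and 317 CPM in WT. Hsp90b1 stood at 374, 247 and 212 CPM in KO at 10 weeks, against 419, 383 and 322 CPM in WT. Its pattern over the libraries resembled that of Hspa5, with KO replicate 1 at 10 weeks inside the WT range. Hsp90b1 was lower in KO at 6 weeks, with a log2 change of -0.59 (adjusted p = 0.0331, SE 0.19) and not called at 10 weeks, -0.43 (adjusted p = 0.102, SE 0.19). At 6 weeks Hsp90b1 lost its call with each of the 6 libraries left out in turn (adjusted p from 0.0615 to 0.113).

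Hyou1, the large Hsp70-like nucleotide exchange factor of BiP, had 49.7, 112 and 60.3 CPM in KO at 3 weeks, against 44.2, 47.7 and 61.8 CPM in WT. Hyou1 was at 49.0, 50.1 and 47.7 CPM in KO at 6 weeks, against 47.7, 59.5 and 59.6 CPM in WT. Hyou1 stood at 64.8, 51.2 and 60.5 CPM in KO at 10 weeks, against 90.0, 88.3 and 85.2 CPM in WT. At 3 weeks only KO replicate 2 stood above the WT range of Hyou1, at 6 weeks the groups overlapped, and at 10 weeks all KO values lay below WT. No single age was called for Hyou1 by edgeR (log2 fold change 0.53, -0.18 and -0.58 at 3, 6 and 10 weeks, adjusted p = 0.0521 at 10 weeks), though DESeq2 and limma voom called it lower at 10 weeks (adjusted p = 0.0335 and 0.0458). The effect at 10 against 3 weeks was called, -1.11 (adjusted p = 0.0407, SE 0.30), and it kept its call in 4 of 12 fits with 1 library left out, and lost it without WT replicate 1 at 3 weeks, WT replicate 2 at 3 weeks, WT replicate 1 at 10 weeks, WT replicate 2 at 10 weeks, WT replicate 3 at 10 weeks, KO replicate 1 at 10 weeks, KO replicate 2 at 10 weeks and KO replicate 3 at 10 weeks (adjusted p up to 0.121). Hspa13, an Hsp70-like ATPase of microsomes, lay between 11.5 and 17.7 CPM in all libraries and was called at no age.

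**Figure D2:**
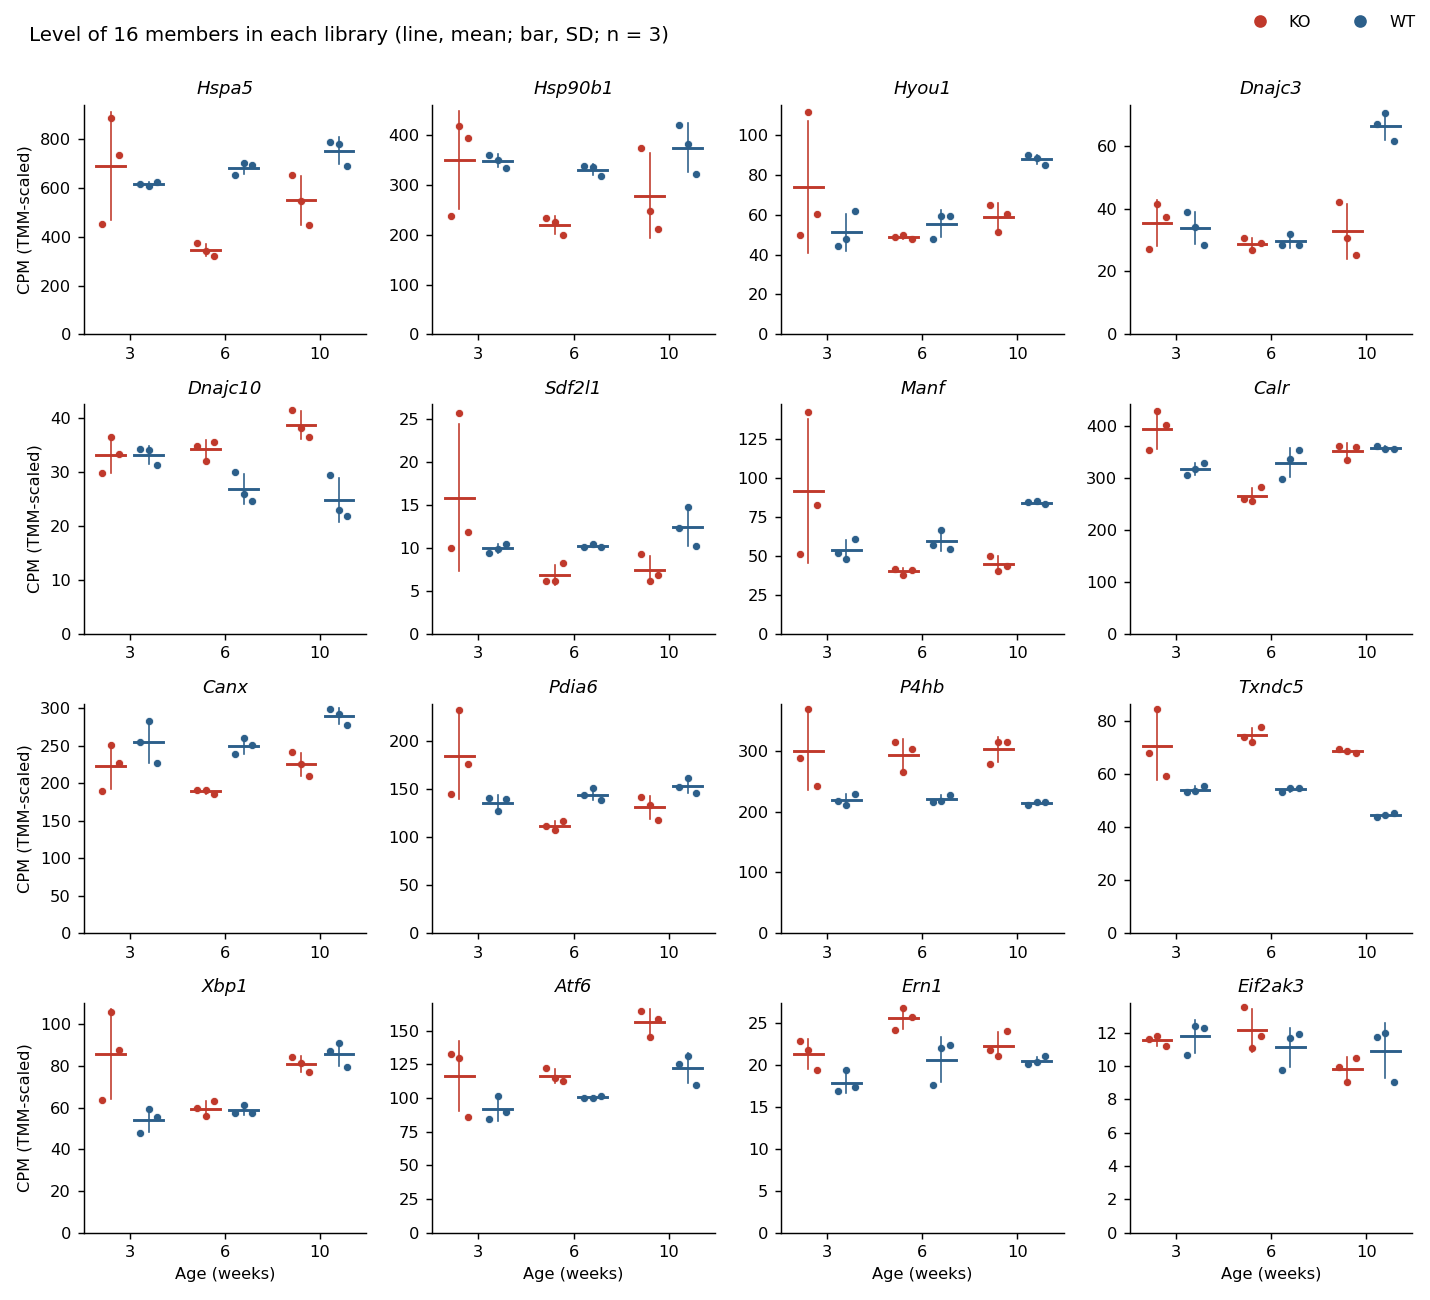
CPM of 16 genes in each of the 18 libraries against age in weeks, KO left of WT at each age (points, libraries; line, mean; bar, SD; n = 3). The median coefficient of variation over the tested genes was 19.97% in KO at 3 weeks and at most 9.84% in the other groups, and the P4hb and Txndc5 points of KO lie above those of WT at every age.

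The J-domain co-chaperones, which bring substrates to BiP and start its ATP cycle, moved in different directions. Dnajc3, also called p58IPK, had 27.3, 41.5 and 37.3 CPM in KO at 3 weeks, against 38.8, 34.1 and 28.5 CPM in WT. Dnajc3 was at 30.6, 27.0 and 29.1 CPM in KO at 6 weeks, against 28.5, 31.8 and 28.4 CPM in WT. Dnajc3 stood at 42.2, 30.8 and 25.3 CPM in KO at 10 weeks, against 67.0, 70.3 and 61.6 CPM in WT. The groups overlapped at 3 and 6 weeks. At 10 weeks the WT values lay far above all earlier ones, while the KO values lay between 25.3 and 42.2 CPM. Dnajc3 was lower in KO at 10 weeks, with a log2 change of -1.02 (adjusted p = 7.3e-05, SE 0.16), and kept its call with each of the 6 libraries left out in turn (adjusted p at most 0.00102). Between 6 and 10 weeks Dnajc3 rose by 1.16 (adjusted p = 0.000108, SE 0.16) in WT, and in KO the change was 0.18 (adjusted p = 0.523, SE 0.16). Its genotype effect at 10 weeks was below that at 6 weeks, with a log2 change of -0.99 (adjusted p = 0.0156, SE 0.23) and below that at 3 weeks, with a log2 change of -1.08 (adjusted p = 0.00728, SE 0.23). Dnajc3 kept both calls with each of the 12 libraries left out in turn (adjusted p at most 0.0477).

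Dnajc10, known as ERdj5, a disulfide reductase that serves ER-associated degradation, had 29.8, 36.5 and 33.4 CPM in KO at 3 weeks, against 34.2, 34.0 and 31.2 CPM in WT. Dnajc10 was at 34.8, 32.1 and 35.6 CPM in KO at 6 weeks, against 30.0, 26.0 and 24.6 CPM in WT. Dnajc10 stood at 41.5, 38.1 and 36.4 CPM in KO at 10 weeks, against 29.4, 23.0 and 21.8 CPM in WT. The groups overlapped at 3 weeks and were apart at 6 and 10 weeks, with KO higher. Dnajc10 was higher in KO by 0.35 (adjusted p = 0.0395, SE 0.12) at 6 weeks and by 0.64 (adjusted p = 0.000378, SE 0.12) at 10 weeks. The first of these calls held in 1 of 6 fits with 1 library left out (that without WT replicate 1), with adjusted p up to 0.145, and the second in 6 of 6. The effect at 10 against 3 weeks was 0.64 (adjusted p = 0.0289, SE 0.17), and it kept its call in 7 of 12 fits with 1 library left out, and lost it without WT replicate 1 at 3 weeks, WT replicate 2 at 3 weeks, WT replicate 2 at 10 weeks, WT replicate 3 at 10 weeks and KO replicate 1 at 3 weeks (adjusted p up to 0.0813). Dnajb9 (ERdj4) and Dnajb11 (ERdj3) were called at 3 weeks alone, where they were higher in KO. Dnajb9 had 28.7, 56.9 and 32.8 CPM in KO and 26.8, 27.0 and 20.1 CPM in WT, a rise of 0.67 (adjusted p = 0.0148, SE 0.18). Dnajb11 had 57.8, 71.1 and 57.3 CPM in KO and 49.8, 48.6 and 53.8 CPM in WT, a rise of 0.29 (adjusted p = 0.0388, SE 0.09). Neither overlapped between the groups. Dnajb9 kept its call in 4 of 6 fits with 1 library left out, and lost it without WT replicate 3 and KO replicate 2 (adjusted p up to 0.131). Dnajb11 kept its call in 3 of 6 fits with 1 library left out, and lost it without WT replicate 1, WT replicate 2 and KO replicate 2 (adjusted p up to 0.235). In WT, Dnajb9 rose between 6 and 10 weeks by 0.64 (adjusted p = 0.0320, SE 0.18), and at 10 weeks its genotype effect was 0.05.

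Of the 3 small luminal cofactors, Manf was higher in KO at 3 weeks and lower at 10 weeks, and Sdf2l1 was lower at 10 weeks. Manf, a secreted neurotrophic factor that binds BiP, had 51.0, 142 and 82.8 CPM in KO at 3 weeks, against 52.1, 48.0 and 61.3 CPM in WT. Manf was at 41.9, 37.9 and 41.2 CPM in KO at 6 weeks, against 57.3, 66.9 and 54.5 CPM in WT. Manf stood at 50.3, 40.5 and 43.7 CPM in KO at 10 weeks, against 84.5, 85.4 and 83.3 CPM in WT. At 3 weeks KO replicate 1 lay within the WT range and replicates 2 and 3 above it. At 6 and 10 weeks all KO values lay below all WT values. Manf was higher in KO at 3 weeks by 0.77 (adjusted p = 0.0407, SE 0.24), not called at 6 weeks, -0.56 (adjusted p = 0.110, SE 0.24), and lower at 10 weeks, with a log2 change of -0.91 (adjusted p = 0.00993, SE 0.24). At 3 weeks Manf kept its call in 2 of 6 fits with 1 library left out, and lost it without WT replicate 1, WT replicate 2, KO replicate 2 and KO replicate 3 (adjusted p up to 0.217). At 10 weeks Manf kept its call with each of the 6 libraries left out in turn (adjusted p at most 0.0490). The effect at 10 against 3 weeks, -1.69 (adjusted p = 0.00879, SE 0.34), was the lowest of the list in that contrast, and it kept its call with each of the 12 libraries left out in turn (adjusted p at most 0.0321). The Manf locus of the count tables shares exon bases with Dcaf1, 4930524O07Rik and Rbm15b, at most 4.71% of its exon length with any 1 of them.

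Sdf2l1, a partner of ERdj3 that keeps BiP clients from aggregating, had 9.98, 25.7 and 11.8 CPM in KO at 3 weeks, against 9.42, 9.86 and 10.5 CPM in WT. Sdf2l1 was at 6.11, 6.13 and 8.20 CPM in KO at 6 weeks, against 10.1, 10.5 and 10.1 CPM in WT. Sdf2l1 stood at 9.26, 6.17 and 6.77 CPM in KO at 10 weeks, against 12.3, 14.8 and 10.2 CPM in WT. Its counts were low, 102 to 458 per library. Only KO replicate 2 at 3 weeks was far above the rest, and at 6 and 10 weeks the KO values lay below WT. Sdf2l1 was lower in KO at 10 weeks, with a log2 change of -0.75 (adjusted p = 0.0402, SE 0.27), and it kept its call in 2 of 6 fits with 1 library left out, and lost it without WT replicate 1, WT replicate 2, KO replicate 2 and KO replicate 3 (adjusted p up to 0.160). At 6 weeks it was not called, -0.59 (adjusted p = 0.123, SE 0.27). Its effect at 10 against 3 weeks was -1.42 (adjusted p = 0.0291, SE 0.37), and it kept its call in 7 of 12 fits with 1 library left out, and lost it without WT replicate 1 at 3 weeks, WT replicate 2 at 3 weeks, WT replicate 1 at 10 weeks, WT replicate 2 at 10 weeks and KO replicate 2 at 10 weeks (adjusted p up to 0.0954). Creld2, a disulfide isomerase-like protein induced by ER stress, was called at no age, with fold changes of 0.40, -0.44 and -0.44 at 3, 6 and 10 weeks. Its KO values of 14.3, 14.2 and 14.5 CPM at 6 weeks nonetheless all lay below the WT values of 17.9, 19.95 and 20.5 CPM.

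Both lectin chaperones of the glycoprotein folding cycle were lower in KO at 6 weeks. Calr, the soluble lectin and calcium buffer of the lumen, had 353, 428 and 401 CPM in KO at 3 weeks, against 306, 317 and 328 CPM in WT. Calr was at 258, 255 and 282 CPM in KO at 6 weeks, against 298, 337 and 353 CPM in WT. Calr stood at 361, 335 and 359.7 CPM in KO at 10 weeks, against 362, 356 and 355 CPM in WT. The KO values lay above WT at 3 weeks, below WT at 6 weeks and within or beside the WT range at 10 weeks. Calr was higher in KO at 3 weeks by 0.31 (adjusted p = 0.0258, SE 0.09) and lower at 6 weeks, with a log2 change of -0.31 (adjusted p = 0.0174, SE 0.09), and at 10 weeks its fold change was -0.02 (adjusted p = 0.880, SE 0.09). At 3 weeks Calr kept its call in 2 of 6 fits with 1 library left out, and lost it without WT replicate 1, WT replicate 2, KO replicate 2 and KO replicate 3 (adjusted p up to 0.118). At 6 weeks Calr kept its call in 3 of 6 fits with 1 library left out, and lost it without WT replicate 3, KO replicate 1 and KO replicate 2 (adjusted p up to 0.112). The effect at 6 against 3 weeks was -0.63 (adjusted p = 0.0177, SE 0.13), and it kept its call in 9 of 12 fits with 1 library left out, and lost it without WT replicate 3 at 6 weeks, KO replicate 1 at 6 weeks and KO replicate 2 at 6 weeks (adjusted p up to 0.0799).

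Canx, the membrane-bound lectin, had 189.7, 251 and 228 CPM in KO at 3 weeks, against 255, 283 and 228 CPM in WT. Canx was at 191, 191 and 186 CPM in KO at 6 weeks, against 239, 260.4 and 251 CPM in WT. Canx stood at 241, 225 and 209.8 CPM in KO at 10 weeks, against 299, 292 and 278 CPM in WT. The KO and WT values of Canx overlapped at 3 weeks, and KO lay below WT in every library at 6 and 10 weeks. Its fold change was -0.20 (adjusted p = 0.222, SE 0.10) at 3 weeks, -0.40 (adjusted p = 0.00727, SE 0.10) at 6 weeks and -0.36 (adjusted p = 0.0120, SE 0.10) at 10 weeks. At 6 weeks Canx kept its call with each of the 6 libraries left out in turn (adjusted p at most 0.0317). At 10 weeks Canx kept its call in 5 of 6 fits with 1 library left out, and lost it without KO replicate 3 (adjusted p up to 0.0651). The genotype effect on Canx was not called as different between any pair of ages (adjusted p from 0.548 to 0.915).

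Of the 7 disulfide isomerase genes, P4hb and Txndc5 were higher in KO at all 3 ages, Pdia6 was higher at 3 weeks and lower at 6 weeks, Pdia3 and Pdia4 were lower at 10 weeks, and Erp44 and Pdia5 were called at no age. P4hb, protein disulfide isomerase itself and the beta subunit of collagen prolyl 4-hydroxylase, had 289, 369 and 242 CPM in KO at 3 weeks, against 218, 212 and 229 CPM in WT. P4hb was at 314, 265 and 303 CPM in KO at 6 weeks, against 216, 218 and 227 CPM in WT. P4hb stood at 279, 315 and 314 CPM in KO at 10 weeks, against 212, 216 and 216 CPM in WT. The KO libraries lay above all WT libraries of the same age at each age. P4hb was higher in KO by 0.45 (adjusted p = 0.0115, SE 0.12) at 3 weeks, 0.42 (adjusted p = 0.0120, SE 0.12) at 6 weeks and 0.50 (adjusted p = 0.00268, SE 0.12) at 10 weeks. P4hb lost its call without KO replicate 2 at 3 weeks (adjusted p = 0.103) and without KO replicate 1 at 6 weeks (adjusted p = 0.0507), and kept it in the other 16 such fits over the 3 ages.

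Txndc5, a thioredoxin-like isomerase known in the mouse heart from fibroblasts, had 67.9, 84.4 and 59.1 CPM in KO at 3 weeks, against 53.1, 53.5 and 55.6 CPM in WT. Txndc5 was at 74.0, 72.0 and 77.6 CPM in KO at 6 weeks, against 53.1, 54.7 and 54.8 CPM in WT. Txndc5 stood at 69.6, 68.7 and 68.0 CPM in KO at 10 weeks, against 43.7, 44.4 and 45.3 CPM in WT. The groups were apart at each age, and at 10 weeks the WT values were the lowest of all groups. Txndc5 was higher in KO by 0.38 (adjusted p = 0.0157, SE 0.10) at 3 weeks, 0.46 (adjusted p = 0.00233, SE 0.10) at 6 weeks and 0.63 (adjusted p = 0.000101, SE 0.10) at 10 weeks. At 3 weeks Txndc5 kept its call in 3 of 6 fits with 1 library left out, and lost it without WT replicate 1, WT replicate 2 and KO replicate 2 (adjusted p up to 0.131). At 6 and 10 weeks it kept its call with each library left out in turn (adjusted p at most 0.0138 and 0.000946). For neither P4hb nor Txndc5 was the effect called as different between ages. The summed level of fibroblast markers, which overlapped between the groups at 3 weeks and was higher in KO at 6 and 10 weeks, was 2932 to 3512 CPM in KO and 2778 to 3244 CPM in WT at 3 weeks, 3144 to 3864 CPM in KO and 2415 to 2505 CPM in WT at 6 weeks, and 2527 to 2888 CPM in KO and 2049 to 2311 CPM in WT at 10 weeks. Of 12 fibroblast markers tested, 2 were higher and 3 lower at 3 weeks, 9 and 1 at 6 weeks, and 5 and 1 at 10 weeks, and Cthrc1, not tested, was at 0.665 CPM or less. Of all genes, 8.65% and 6.68% were called higher and lower at 3 weeks, 11% and 12.8% at 6 weeks, and 14.6% and 14.7% at 10 weeks. The part of fibroblasts in the levels of P4hb and Txndc5 was not tested.

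Pdia6, an isomerase that also acts on the stress sensors, had 145, 233 and 176 CPM in KO at 3 weeks, against 141, 127 and 140.2 CPM in WT. Pdia6 was at 112, 108 and 117 CPM in KO at 6 weeks, against 144, 151 and 139 CPM in WT. Pdia6 stood at 142, 134 and 118 CPM in KO at 10 weeks, against 152, 162 and 146 CPM in WT. KO lay above WT at 3 weeks and below it at 6 and 10 weeks. Pdia6 was higher in KO at 3 weeks by 0.44 (adjusted p = 0.0199, SE 0.12), lower at 6 weeks, with a log2 change of -0.37 (adjusted p = 0.0367, SE 0.13) and not called at 10 weeks, -0.22 (adjusted p = 0.192, SE 0.13). At 3 weeks Pdia6 kept its call in 4 of 6 fits with 1 library left out, and lost it without WT replicate 2 and KO replicate 2 (adjusted p up to 0.175). At 6 weeks Pdia6 lost its call with each of the 6 libraries left out in turn (adjusted p from 0.0623 to 0.116). Its effect was lower at 6 than at 3 weeks, with a log2 change of -0.81 (adjusted p = 0.0233, SE 0.18) and lower at 10 than at 3 weeks, with a log2 change of -0.67 (adjusted p = 0.0288, SE 0.18). The first of these differences kept its call in 7 of 12 fits with 1 library left out, and lost it without WT replicate 2 at 3 weeks, WT replicate 1 at 6 weeks, WT replicate 3 at 6 weeks, KO replicate 1 at 6 weeks and KO replicate 2 at 6 weeks (adjusted p up to 0.0696). The second kept its call in 5 of 12 fits with 1 library left out, and lost it without WT replicate 2 at 3 weeks, WT replicate 1 at 10 weeks, WT replicate 2 at 10 weeks, WT replicate 3 at 10 weeks, KO replicate 2 at 3 weeks, KO replicate 2 at 10 weeks and KO replicate 3 at 10 weeks (adjusted p up to 0.0796).

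Pdia3 (ERp57), the partner of calnexin and calreticulin, was lower in KO at 10 weeks, with 141, 118 and 97.8 CPM in KO and 173, 162 and 150.2 CPM in WT, with a log2 change of -0.45 (adjusted p = 0.0196, SE 0.14). Pdia4 (ERp72) was also lower at 10 weeks, with 37.3, 30.8 and 30.6 CPM in KO and 45.9, 44.7 and 40.8 CPM in WT, with a log2 change of -0.42 (adjusted p = 0.0487, SE 0.16). All KO values of both genes lay below all WT values. Pdia3 kept its call in 3 of 6 fits with 1 library left out, and lost it without WT replicate 1, KO replicate 2 and KO replicate 3 (adjusted p up to 0.121). Pdia4 kept its call in 1 of 6 fits with 1 library left out, and lost it without WT replicate 1, WT replicate 2, WT replicate 3, KO replicate 2 and KO replicate 3 (adjusted p up to 0.170). Erp44, which retains partly folded secretory proteins, and Pdia5 were called at no age, with fold changes between -0.26 and -0.03 for Erp44 and between -0.36 and -0.02 for Pdia5. Pdia5 had only 54 to 133 counts per library.

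Genes of ER-associated degradation, the route that returns misfolded proteins to the cytosol for the proteasome, gave 0 calls by edgeR among the 6 tested at each age. Their fold changes ran from -0.26, for Syvn1 at 10 weeks, to 0.39, for Edem1 at 3 weeks. Herpud1, a stress-induced scaffold of the degradation complex, varied widely among KO libraries, with 141, 104 and 73.7 CPM at 3 weeks, against 74.2, 84.0 and 86.7 CPM in WT. At 10 weeks Herpud1 had 111, 74.1 and 167 CPM in KO and 123, 123 and 124 CPM in WT, so that the KO values spread on both sides of WT. Its high KO library at 3 weeks was replicate 1, which was low for most of the other genes. Edem1, which recognises trimmed mannose, had 19.4, 18.7 and 20.9 CPM in KO and 14.5, 16.1 and 14.3 CPM in WT at 3 weeks without overlap, and 0.39 (adjusted p = 0.0593, SE 0.14) as its fold change. The fold change of Edem1 at 6 weeks was 0.31 (adjusted p = 0.125, SE 0.14), again without overlap. Sel1l, the adaptor of the ubiquitin ligase, stood at 0.14, 0.25 and 0.10 at 3, 6 and 10 weeks, and the ligase itself, Syvn1 (HRD1), at 0.31, 0.01 and -0.26. The membrane proteins Derl1 and Derl2 lay between -0.19 and 0.08. Derl3 had 3, 12 and 10 counts in KO at 3 weeks, against 5, 8 and 1 in WT, and 0 to 12 counts in all libraries. It was too low to test, and no difference was detectable at this depth. Edem1 at 3 weeks was called by DESeq2 and by limma voom, which made no other call among these 6 genes at the 3 ages. At an unadjusted p under 0.05, edgeR gave 2 higher at 3 weeks, 2 higher at 6 weeks and 1 lower at 10 weeks.

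Of the signalling components, Xbp1 was higher in KO at 3 weeks and Atf6 at 10 weeks. Xbp1 had 63.4, 106 and 87.7 CPM in KO at 3 weeks, against 47.7, 59.5 and 55.5 CPM in WT. Xbp1 was at 59.8, 55.7 and 63.0 CPM in KO at 6 weeks, against 57.4, 61.3 and 57.5 CPM in WT. Xbp1 stood at 84.3, 81.5 and 77.0 CPM in KO at 10 weeks, against 87.0, 90.8 and 79.5 CPM in WT. At 3 weeks all KO values of Xbp1 lay above all WT values, and at 6 and 10 weeks the groups overlapped. The rise at 3 weeks was 0.66 (adjusted p = 0.00182, SE 0.13), and at 6 and 10 weeks the fold change was 0.02 (adjusted p = 0.945, SE 0.13) and -0.08 (adjusted p = 0.690, SE 0.13). At 3 weeks Xbp1 kept its call with each of the 6 libraries left out in turn (adjusted p at most 0.0190). It was also the only gene of the list still called at 3 weeks without KO replicate 2. The effect at 10 against 3 weeks was -0.74 (adjusted p = 0.0225, SE 0.19), and it kept its call in 8 of 12 fits with 1 library left out, and lost it without WT replicate 1 at 3 weeks, WT replicate 2 at 10 weeks, KO replicate 2 at 3 weeks and KO replicate 2 at 10 weeks (adjusted p up to 0.0710).

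Atf6 had 133, 129 and 86.0 CPM in KO at 3 weeks, against 84.4, 102 and 89.4 CPM in WT. Atf6 was at 122, 114 and 112 CPM in KO at 6 weeks, against 99.9, 99.8 and 101 CPM in WT. Atf6 stood at 165, 145 and 159 CPM in KO at 10 weeks, against 125, 131 and 109.8 CPM in WT. At 3 weeks KO replicate 3 lay within the WT range and the other two above it, and at 6 and 10 weeks all KO values were above WT. Atf6 was higher in KO at 10 weeks by 0.36 (adjusted p = 0.0395, SE 0.13), and it kept its call in 2 of 6 fits with 1 library left out, and lost it without WT replicate 1, WT replicate 3, KO replicate 1 and KO replicate 3 (adjusted p up to 0.137). At 3 and 6 weeks its fold change was 0.34 (adjusted p = 0.0780, SE 0.13) and 0.21 (adjusted p = 0.257, SE 0.13). Ern1 had 22.8, 21.7 and 19.3 CPM in KO at 3 weeks, against 16.9, 19.3 and 17.4 CPM in WT. Ern1 was at 24.1, 26.7 and 25.6 CPM in KO at 6 weeks, against 17.5, 21.9 and 22.3 CPM in WT. Ern1 stood at 21.7, 21.0 and 24.0 CPM in KO at 10 weeks, against 20.1, 20.3 and 21.0 CPM in WT. KO lay above WT at 3 and 6 weeks without overlap, although KO replicate 3 and WT replicate 2 at 3 weeks were equal to 3 digits, by 0.25 (adjusted p = 0.150, SE 0.12) and 0.31 (adjusted p = 0.0559, SE 0.11), and neither was called by edgeR. At 6 weeks DESeq2 and limma voom called Ern1 higher (adjusted p = 0.0412 and 0.0497). Eif2ak3 had 11.6, 11.8 and 11.2 CPM in KO at 3 weeks, against 10.6, 12.4 and 12.3 CPM in WT. Eif2ak3 was at 13.5, 11.05 and 11.8 CPM in KO at 6 weeks, against 9.78, 11.7 and 11.9 CPM in WT. Eif2ak3 stood at 9.96, 9.01 and 10.4 CPM in KO at 10 weeks, against 11.7, 12.0 and 9.01 CPM in WT. Its values overlapped at every age, with fold changes from -0.16 to 0.12. The activity of PERK, like that of IRE1 and ATF6, is not visible in counts. Of the translocon genes, Ssr1, a subunit of the translocon-associated complex, was higher in KO at 10 weeks, with 74.9, 64.9 and 58.9 CPM in KO and 56.6, 49.9 and 49.6 CPM in WT, by 0.35 (adjusted p = 0.0405, SE 0.12). Ssr1 kept its call in 2 of 6 fits with 1 library left out, and lost it without WT replicate 2, WT replicate 3, KO replicate 1 and KO replicate 2 (adjusted p up to 0.122). Sec61b, a small subunit of the protein channel with 113 to 288 counts per library, was called at no age (-0.23, -0.47 and -0.21).

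**Figure D3:**
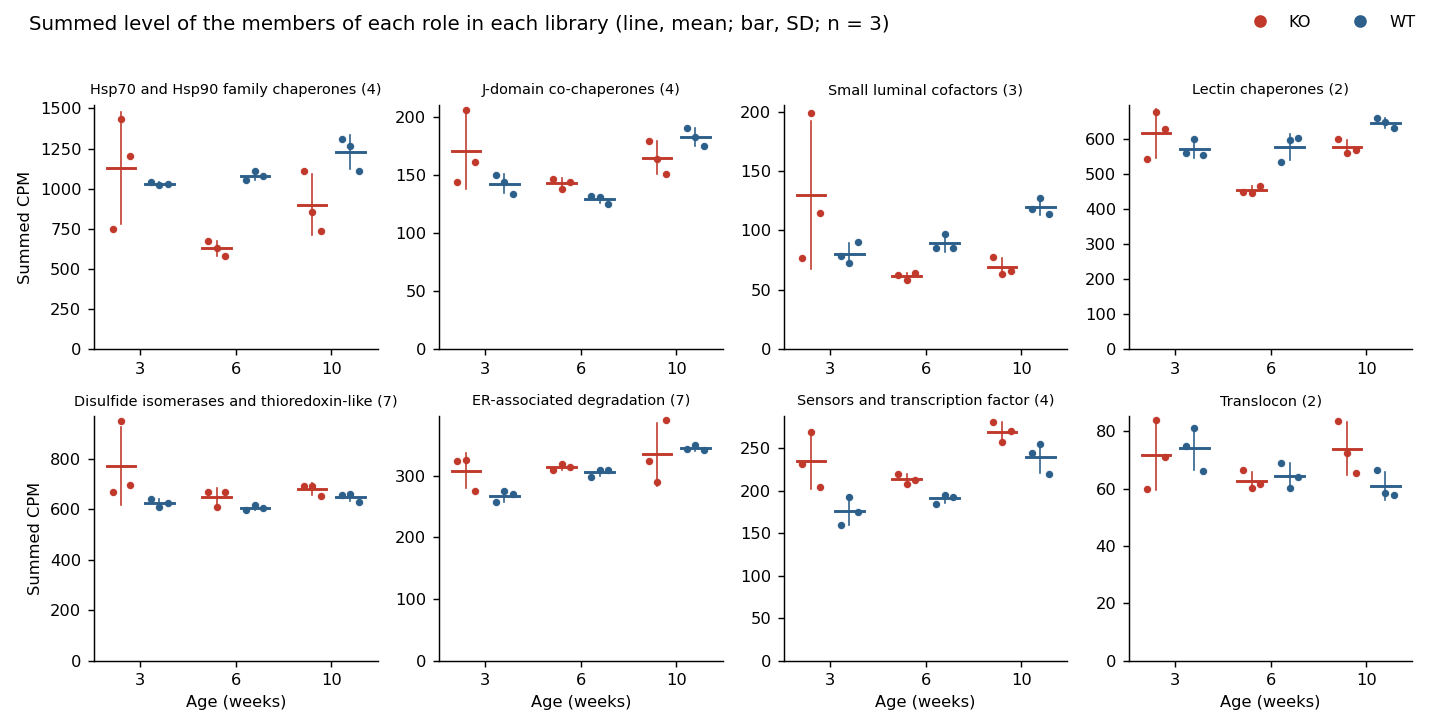
Summed CPM of the genes of each role in each library against age in weeks, KO left of WT at each age (points, libraries; line, mean; bar, SD; n = 3; number of genes in parentheses). The Hsp70 and Hsp90 family sum was 582 to 673 CPM in KO and 1051 to 1111 CPM in WT at 6 weeks, where the groups did not overlap.

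Read by age within a genotype, 10 genes of the list fell in KO between 3 and 6 weeks and 3 rose in WT between 6 and 10 weeks. From 3 to 6 weeks 0 of 32 genes rose and 10 fell in KO (all genes 5.34% and 6.25%), and 0 rose and 0 fell in WT (all genes 2.94% and 2.24%). At an unadjusted p under 0.05, 6 of the 32 differed in WT, and DESeq2 called 1 of them lower and limma voom 0. The genes that fell in KO were Hspa5, Hsp90b1, Dnajb11, Sdf2l1, Manf, Creld2, Calr, Pdia6, Edem1 and Xbp1. Hspa5 fell, with a log2 change of -0.997 (adjusted p = 0.000731, SE 0.17), Manf, with a log2 change of -1.19 (adjusted p = 0.00494, SE 0.24), Sdf2l1, with a log2 change of -1.21 (adjusted p = 0.00538, SE 0.27) and Creld2, with a log2 change of -0.62 (adjusted p = 0.0263, SE 0.18). The count in KO was 6 without KO replicate 2 at 3 weeks, 5 without KO replicate 2 at 6 weeks, 15 without KO replicate 1 at 3 weeks, 6 without the 3 libraries rich in Myl4, and 4 when the fit held those groups alone.

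From 6 to 10 weeks 4 genes rose in KO and 0 fell (all genes 6.52% and 6.14%), namely Hspa5 by 0.67 (adjusted p = 0.0137, SE 0.17), Calr by 0.41 (adjusted p = 0.00653, SE 0.09), Xbp1 by 0.44 (adjusted p = 0.0331, SE 0.13) and Atf6 by 0.43 (adjusted p = 0.0309, SE 0.13). Without the 3 libraries rich in Myl4, or without KO replicate 2 or KO replicate 3 at 6 weeks, 1 gene was called. In WT 3 rose and 0 fell (all genes 3.64% and 5.12%): Dnajc3, given above, Dnajb9, and Xbp1 by 0.55 (adjusted p = 0.0137, SE 0.13). The count of higher genes in WT was 1 without replicate 1 or 3 at 6 weeks or replicate 2 at 10 weeks and 2 without any other 1 of them, while a fit of those groups alone gave 9 higher and 1 lower and a fit with no filter on low counts 5 higher. The median log2 change of the list from 6 to 10 weeks was 0.14 in KO and 0.21 in WT, and that of all genes was -0.02 and -0.01. For Hyou1 the WT values did not overlap between 6 and 10 weeks, and the change was 0.66 (adjusted p = 0.0668, SE 0.21). The genotype effect differed between 6 and 3 weeks for 3 of the 32 genes, between 10 and 6 weeks for 1, and between 10 and 3 weeks for 7 (all genes 1.59%, 5.75% and 5.76%). All but Dnajc10 among these differences were towards lower KO at the later age.

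Levels of different genes are compared per exon length, as TPM over the genes tested. In WT at 10 weeks Hspa5 was the highest of the list at 422 TPM ± 45.3, followed by Calr at 294 TPM ± 13.0, Hsp90b1 at 221 TPM ± 36.1 and P4hb at 177 TPM ± 5.14 (SD, n = 3). The lowest Hsp90b1 library and the highest P4hb library there were 182 and 181 TPM. In KO at the same age Hspa5 stood at 299 TPM ± 47.9, Calr at 283 TPM ± 28.7, P4hb at 245 TPM ± 24.9 and Hsp90b1 at 159 TPM ± 46.8. Hspa5 and Calr did not differ beyond their spread in KO at that age, and P4hb lay above Hsp90b1. In KO at 6 weeks P4hb was at 269 TPM ± 22.5 and Hspa5 at 214 TPM ± 3.48. Eif2ak3 was the lowest of the 32 in WT at 10 weeks, at 4.30 TPM ± 0.781, and Edem1 lay next to it within the spread.

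**Figure D4:**
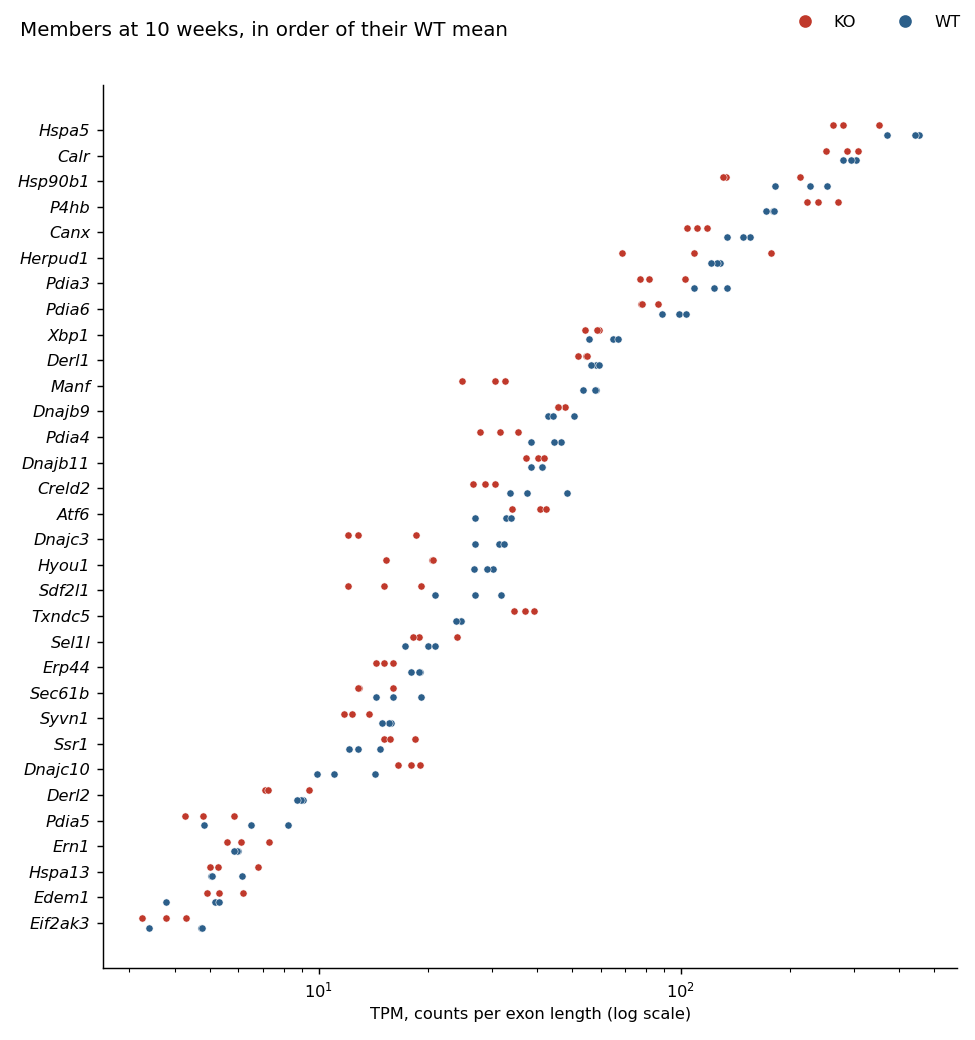
TPM of the 32 genes in each library at 10 weeks on a log scale, KO above WT in each row, in order of the WT mean. Hspa5, Calr, Hsp90b1 and P4hb lie at the top in both genotypes, and Manf, Dnajc3, Txndc5 and Dnajc10 are among the genes with the groups apart.

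Other genes of the secretory pathway were read from 8 further lists. Rises and falls named from them are edgeR calls of KO against WT. These calls were not checked with a library left out or by the other tools. Some lay near the threshold, such as Ddost at 3 weeks (edgeR adjusted p = 0.0480). Among other subunits of the translocon and signal peptidase 1 of 13 were higher and 0 lower at 3 weeks, 1 and 1 at 6 weeks, and 1 and 0 at 10 weeks (median log2 fold change 0.04, -0.06 and 0.02). Spcs3 of the signal peptidase rose at 6 and 10 weeks, by 0.96 (SE 0.22) and 1.24 (SE 0.22), Sec61a1 of the channel rose at 3 weeks by 0.43 (SE 0.12), and Sec61g fell at 6 weeks, with a log2 change of -1.01 (SE 0.25). Among genes of N-glycan transfer and trimming 1 of 14 were higher and 0 lower at 3 weeks, 1 and 2 at 6 weeks, and 0 and 1 at 10 weeks (median log2 fold change 0.15, -0.0022 and 0.13). Rpn1 of the oligosaccharyltransferase fell at 6 and 10 weeks, with a log2 change of -0.48 (SE 0.09) and -0.27 (SE 0.09). Its subunit Ost4 fell at 6 weeks, with a log2 change of -0.41 (SE 0.13), while the catalytic Stt3a rose at 6 weeks by 0.42 (SE 0.12) and Ddost at 3 weeks by 0.29 (SE 0.10). Among further genes of ER-associated degradation 3 of 14 were higher and 0 lower at 3 weeks, 3 and 0 at 6 weeks, and 6 and 0 at 10 weeks (median log2 fold change 0.18, 0.09 and 0.26). The ubiquitin-conjugating enzyme gene Ube2g2 rose at 3 and 10 weeks by 0.43 (SE 0.10) and 0.66 (SE 0.10), Ubxn4 at 3 weeks by 0.48 (SE 0.12) and Herpud2 at 6 weeks by 0.51 (SE 0.12). None of that list fell at any of the 3 ages.

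Among other genes of oxidative folding and prolyl isomerisation 3 of 12 were higher and 1 lower at 3 weeks, 2 and 3 at 6 weeks, and 2 and 2 at 10 weeks (median log2 fold change 0.10, -0.21 and 0.01). The sulfhydryl oxidase gene Qsox1 rose at all 3 ages, by 1.48 (SE 0.16), 1.26 (SE 0.16) and 1.77 (SE 0.16). P4ha1, the catalytic partner of P4hb in collagen prolyl hydroxylation, rose at 6 and 10 weeks by 1.02 (SE 0.12) and 1.01 (SE 0.12). The membrane oxidoreductase gene Tmx1 fell at 3 and 6 weeks, with a log2 change of -1.19 (SE 0.17) and -0.95 (SE 0.17), Erp29 at 6 weeks, with a log2 change of -0.34 (SE 0.10), and Txndc11 at 10 weeks, with a log2 change of -0.46 (SE 0.13). Fkbp2 went both ways, at 0.45 (SE 0.13) at 3 weeks and -0.79 (SE 0.13) at 10 weeks. Among genes of collagen folding in the ER 4 of 11 were higher and 0 lower at 3 weeks, 4 and 1 at 6 weeks, and 3 and 0 at 10 weeks (median log2 fold change 0.29, 0.31 and 0.13). Fkbp10 rose at 3 and 6 weeks by 0.83 (SE 0.13) and 0.89 (SE 0.14), the lysyl hydroxylase gene Plod1 at 3 weeks by 0.47 (SE 0.10), P3h1 at 6 weeks by 0.54 (SE 0.13), and P4ha2 at 10 weeks by 0.30 (SE 0.10). P4ha3 was also called higher at 10 weeks, with 10, 10 and 8 counts in KO and 2, 0 and 1 counts in WT, too few for a fold change. Crtap fell at 6 weeks, with a log2 change of -0.43 (SE 0.12).

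Among membrane-bound transcription factors and PERK outputs 4 of 14 were higher and 0 lower at 3 weeks, 3 and 0 at 6 weeks, and 6 and 0 at 10 weeks (median log2 fold change 0.28, 0.21 and 0.43). Ppp1r15a, the phosphatase subunit that ends PERK signalling, rose at 3 and 10 weeks by 1.099 (SE 0.19) and 1.62 (SE 0.19). Nfe2l2 rose at 3 and 6 weeks by 0.78 (SE 0.15) and 0.64 (SE 0.15), Creb3l2 at 6 weeks by 0.84 (SE 0.19), and Atf4 at 10 weeks by 0.95 (SE 0.10). At 10 weeks Ppp1r15a and Atf4 were thus higher in KO while BiP and Manf were lower. Among genes of the COPI and COPII vesicle coats 3 of 16 were higher and 0 lower at 3 weeks, 3 and 0 at 6 weeks, and 6 and 0 at 10 weeks (median log2 fold change 0.16, 0.10 and 0.27), with Copa at 0.71 (SE 0.09), 0.60 (SE 0.09) and 0.87 (SE 0.09), Sec31a at 0.49 (SE 0.10) and 0.35 (SE 0.10) at 3 and 6 weeks, and Sec23a at 0.67 (SE 0.11) at 10 weeks. Among calcium store genes of the sarcoplasmic reticulum 3 of 14 were higher and 1 lower at 3 weeks, 4 and 3 at 6 weeks, and 8 and 1 at 10 weeks (median log2 fold change 0.14, -0.01 and 0.36). Casq1, a calsequestrin gene listed beside Casq2, rose at all 3 ages, by 1.31 (SE 0.19), 1.29 (SE 0.19) and 1.40 (SE 0.19). Srl rose at 3 weeks by 0.57 (SE 0.11), and Rcn1 at 6 and 10 weeks by 0.49 (SE 0.11) and 0.81 (SE 0.11). The calcium pump gene Atp2a2 fell at 6 and 10 weeks, with a log2 change of -0.63 (SE 0.12) and -0.41 (SE 0.12), its inhibitor Pln at 3 weeks, with a log2 change of -0.53 (SE 0.13), and Hrc at 6 weeks, with a log2 change of -0.84 (SE 0.12). The shares of all genes called at each age are those given with the counts of the list.

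Markers of other cells were read beside the list. The summed cardiomyocyte markers were 88557 to 89926 CPM in KO and 66295 to 78090 CPM in WT at 3 weeks. At 6 weeks they were 77329 to 88079 CPM in KO and 82838 to 94054 CPM in WT. At 10 weeks they were 90264 to 100048 CPM in KO and 79598 to 87123 CPM in WT. The summed levels were thus apart at 3 and 10 weeks, with KO higher, and overlapped at 6 weeks. Myh6 alone held 29027 to 49660 CPM over all libraries and weighs most in this sum. Pln, of the same list, was called lower in KO at 3 weeks, as given above. Calls of the other cardiomyocyte markers are not reported here. Markers of mural cells summed to 963 to 1291 CPM in KO and 1638 to 1738 CPM in WT at 3 weeks, 739.6 to 919 CPM in KO and 1141 to 1221 CPM in WT at 6 weeks, and 700.4 to 839.6 CPM in KO and 1231 to 1608 CPM in WT at 10 weeks, and the groups did not overlap at any age. Of the 8 mural markers, edgeR called 1 higher and 3 lower at 3 weeks, 1 higher and 3 lower at 6 weeks, 2 higher and 4 lower at 10 weeks. Endothelial markers summed to 770.2 to 1021 CPM in KO and 1007 to 1049.6 CPM in WT at 3 weeks, 659.7 to 804 CPM in KO and 884 to 981 CPM in WT at 6 weeks, and 809.8 to 906 CPM in KO and 959 to 1165 CPM in WT at 10 weeks. Of the 9 endothelial markers, edgeR called 0 higher and 0 lower at 3 weeks, 0 higher and 3 lower at 6 weeks, 0 higher and 2 lower at 10 weeks. In KO at 3 weeks, replicate 2, the library highest for most of the list, held 770.2 CPM of endothelial markers, against 1015 and 1021 CPM in the other two. Markers of B and plasma cells, which carry a large ER, summed to 9.75 to 34.7 CPM over all libraries, with the plasma cell genes Jchain at 0 in 2 libraries and at most 2.03 CPM, and Mzb1 at 0.708 to 1.84 CPM. Macrophage markers summed to 342 to 367 CPM in KO and 365 to 442 CPM in WT at 3 weeks, 273 to 329 CPM in KO and 347 to 438 CPM in WT at 6 weeks, and 208 to 259 CPM in KO and 272 to 317 CPM in WT at 10 weeks. Of the 10 macrophage markers, edgeR called 0 higher and 1 lower at 3 weeks, 1 higher and 2 lower at 6 weeks, 0 higher and 4 lower at 10 weeks. Epicardial and mesothelial markers summed to 22.5 to 43.8 CPM in KO and 11.6 to 19.5 CPM in WT at 3 weeks, 19.1 to 30.6 CPM in KO and 10.1 to 34.9 CPM in WT at 6 weeks, and 28.0 to 72.8 CPM in KO and 8.43 to 15.4 CPM in WT at 10 weeks, and 5 of 6 were higher at 10 weeks. The part of these cells in the differences was not tested. Beside these marker counts, the shares of all genes called higher and lower were 8.65% and 6.68% at 3 weeks. They were 11% and 12.8% at 6 weeks, and 14.6% and 14.7% at 10 weeks.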

How the data were processed

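The 18 libraries were made from total RNA of frozen left ventricle, 3 for each genotype and age. Reads were trimmed with Trimmomatic 0.36, aligned with STAR 2.5.2b to GRCm38 and counted with featureCounts of Subread 1.5.2, per the submitters' processing notes. The annotation release, strand setting and treatment of reads with several positions are not given in the sources used here. As deposited, the values are raw counts per gene with exon length, per the file headers, and TPM were computed from both. Libraries were compared pairwise within each group, and none was a copy of another of its group. Counts were scaled by TMM, filtered with filterByExpr (minimum count 10, minimum total 15) and tested by edgeR 4.0.16 (R 4.3.3), robust quasi-likelihood, with 6 group means in 1 fit of 18 libraries and Benjamini-Hochberg adjustment over 15778 genes. DESeq2 1.42.0, limma 3.58.1 voom, other scalings and filters, a replicate block and left-out libraries were alternatives. Of 49315 identifiers 49056 matched GENCODE M21; Leprel1, a listed gene, did not. Of the 33 genes, 8 share exon bases with another gene, at most 10.3% (Hsp90b1), so some reads could belong to either. Library values are printed for genes called at 2 ages or more or in an effect difference, and for Hspa5, Hsp90b1, Xbp1, Atf6, Ern1 and Eif2ak3. Other genes called between KO and WT are named with values. From each further list up to 2 called genes per direction and age are named, the smallest p first, and 1 gene this rule picks is not reported here. Values of other genes were added after they were seen. The genes, lists and tests were chosen with earlier results of these data known.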

Additional observations from a re-analysis of the deposited data

Results flagged for a closer look

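The genotype effect, log2 of KO over WT, differed between ages for 9 genes by edgeR's test of the difference itself. At 6 against 3 weeks the effect was lower for Hspa5, with a log2 change of -1.15 (adjusted p = 0.0186, SE 0.24), for Calr, with a log2 change of -0.63 (adjusted p = 0.0177, SE 0.13) and for Pdia6, with a log2 change of -0.81 (adjusted p = 0.0233, SE 0.18). Hspa5 kept its call in 6 of 12 fits with 1 library left out, and lost it without WT replicate 1 at 3 weeks, WT replicate 2 at 3 weeks, WT replicate 1 at 6 weeks, WT replicate 3 at 6 weeks, KO replicate 2 at 6 weeks and KO replicate 3 at 6 weeks (adjusted p up to 0.0559). At 10 against 6 weeks it was lower for Dnajc3, with a log2 change of -0.99 (adjusted p = 0.0156, SE 0.23). At 10 against 3 weeks it was lower for Manf, with a log2 change of -1.69 (adjusted p = 0.00879, SE 0.34), for Sdf2l1, with a log2 change of -1.42 (adjusted p = 0.0291, SE 0.37), for Hyou1, with a log2 change of -1.11 (adjusted p = 0.0407, SE 0.30), for Dnajc3, with a log2 change of -1.08 (adjusted p = 0.00728, SE 0.23), for Xbp1, with a log2 change of -0.74 (adjusted p = 0.0225, SE 0.19) and for Pdia6, with a log2 change of -0.67 (adjusted p = 0.0288, SE 0.18), and it was higher for Dnajc10 by 0.64 (adjusted p = 0.0289, SE 0.17). Of these 11 differences, 3 were called under every alternative tried, those of Dnajc3 and that of Manf. The differences against 3 weeks include KO replicate 2 at 3 weeks, the library highest for 27 of the 32 genes among the KO libraries of its age. Its part in these differences was not tested beyond the fits without it.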

How the results depend on the processing

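Of 196 counts of called genes under the alternatives that kept every library or removed those rich in Myl4, 172 stayed within 1.5 times the reported count. DESeq2 gave 6 lower for the effect at 6 against 3 weeks and 1 lower at 6 against 3 weeks in WT. Upper quartile scaling gave 5 higher at 3 weeks, 3 higher at 10 weeks, 2 higher at 10 against 6 weeks in KO and 1 lower at 6 against 3 weeks in WT. Without a filter on low counts there were 9 lower for the effect at 6 against 3 weeks, 1 higher at 10 against 6 weeks and 10 lower at 10 against 3 weeks, and within WT 1 higher at 6 against 3 weeks and 5 higher at 10 against 6 weeks. A fit of only the groups compared gave 1 higher at 3 weeks, 8 lower at 6 weeks, and for the effect at 10 against 3 weeks 0 higher and 2 lower. That fit also gave 4 lower at 6 against 3 weeks in KO, and in WT 1 higher and 2 lower at 6 against 3 weeks and 9 higher and 1 lower at 10 against 6 weeks. Leaving out the 3 libraries rich in Myl4 was an alternative chosen after seeing the data. With it the effect at 6 against 3 weeks gave 1 lower and that at 10 against 3 weeks 0 higher. KO then gave 6 lower at 6 against 3 weeks and 1 higher at 10 against 6 weeks. With 1 library left out, higher and lower counts ran from 1 to 13 and 0 to 0 at 3 weeks, 1 to 3 and 2 to 4 at 6 weeks, and 3 to 4 and 2 to 8 at 10 weeks. For the effect differences they ran from 0 to 0 and 0 to 7 at 6 against 3 weeks, 0 to 0 and 1 to 1 at 10 against 6 weeks, and 0 to 1 and 2 to 10 at 10 against 3 weeks. Within KO they ran from 0 to 0 and 5 to 15 at 6 against 3 weeks and 1 to 5 and 0 to 0 at 10 against 6 weeks, and within WT from 0 to 0 and 0 to 2, and 1 to 2 and 0 to 0. Of the 28 calls between KO and WT, 9 held under every alternative: Xbp1 at 3 weeks, Hspa5, Canx and Txndc5 at 6 weeks, and Dnajc3, Dnajc10, Manf, P4hb and Txndc5 at 10 weeks. No fold change called in either fit reversed. With the replicate number as a block, 6 genes were higher at 3 weeks and 5 lower at 10 weeks, and the other counts were as reported. Deviations of same-numbered libraries of KO and WT at the same age correlated between -0.0844 and 0.0852 over 9 pairs of libraries. Those of same-numbered libraries over all pairs of groups correlated between -0.220 and 0.112. No pairing by number was seen in these correlations, and whether same-numbered libraries shared a litter or preparation was not tested. The cause of these changes was not tested. Depth limited Derl3, at 12 counts or fewer.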
